A study of Mus musculus with 22 samples.

Results

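Prss50, Atp2b2, Mgam and Myo5c are 4 protein-coding mouse genes named by the study from its liver RNA-seq, and they were taken as a set for that reason, out of 37991 genes in the count tables. Their transcript counts were read in 6 E14.5 fetal livers, and DNA methylation was read in and around each gene in 12 libraries of whole-genome bisulphite sequencing (WGBS). The wild-type group was Line3, FVB/NJ mice that bear many copies of a GFP reporter on both homologues. Its expression is directed by human alpha-globin sequences, a promoter and the HS-40 enhancer. The homozygous group carried the same transgene together with 2 copies of MommeD28, a null allele of Rlf induced with N-ethyl-N-nitrosourea (ENU), so that control and mutant samples shared both strain and reporter. WGBS covered E10.5 whole embryos (all male), E14.5 livers (replicate 1 of each genotype male, replicate 2 female) and E18.5 livers (all female), with 2 libraries of each genotype per stage. RNA-seq covered 3 wild-type and 3 homozygous E14.5 livers, of which replicate 3 of each genotype was female. Heterozygous parents were mated to obtain the embryos, and homozygotes do not outlive the perinatal period.

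The genes have little in common by function. Prss50 encodes a protease-like protein of the chymotrypsin fold that is best known from the testis. Atp2b2 encodes PMCA2, a plasma membrane pump that moves calcium out of neurons, cochlear hair cells and milk-secreting epithelium. Mgam encodes maltase-glucoamylase, the brush-border enzyme that releases glucose from starch, and Myo5c a class V myosin that carries secretory granules along actin in glandular epithelium. In mammals, methyl groups sit mostly on the cytosine of CpG dinucleotides. CpG-rich gene starts are usually kept free of them, while most CpG-poor sequence is methylated. Rlf encodes a zinc finger protein that emerged from a screen for altered silencing of the GFP reporter.

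On mm9, Prss50 lay on the plus strand of chr9:110760471-110767132 with 5 exons, and Myo5c on the plus strand of chr9:75079821-75153258 with 41 exons. Mgam occupied the plus strand of chr6:40578830-40719122 with 48 exons, and Atp2b2 the minus strand of chr6:113695663-113992607, where the transcript with the longest coding sequence, Atp2b2-003, had 24 exons. The starts differed in CpG content. Within 1 kb to either side of the start, the ratio of observed to expected CpGs was 0.50 at Myo5c, 0.46 at Prss50, 0.22 at Mgam and 0.18 at the start of Atp2b2-003. The sequences below, from the mm9 reference, show the 250 bases before 3 of the starts. Capitals mark CpG dinucleotides, the positions at which methylation was measured.
Prss50, chr9:110760221-110760470, plus strand: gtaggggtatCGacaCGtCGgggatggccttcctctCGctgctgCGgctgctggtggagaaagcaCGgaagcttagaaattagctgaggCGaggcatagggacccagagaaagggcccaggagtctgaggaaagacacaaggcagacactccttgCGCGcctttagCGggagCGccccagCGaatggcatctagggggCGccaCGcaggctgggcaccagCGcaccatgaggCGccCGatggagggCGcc
Myo5c, chr9:75079571-75079820, plus strand: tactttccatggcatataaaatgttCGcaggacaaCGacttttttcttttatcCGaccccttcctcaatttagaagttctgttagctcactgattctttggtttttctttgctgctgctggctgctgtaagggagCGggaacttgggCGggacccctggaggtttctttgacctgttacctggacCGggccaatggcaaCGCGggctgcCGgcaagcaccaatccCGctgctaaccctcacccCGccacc
Mgam, chr6:40578580-40578829, plus strand: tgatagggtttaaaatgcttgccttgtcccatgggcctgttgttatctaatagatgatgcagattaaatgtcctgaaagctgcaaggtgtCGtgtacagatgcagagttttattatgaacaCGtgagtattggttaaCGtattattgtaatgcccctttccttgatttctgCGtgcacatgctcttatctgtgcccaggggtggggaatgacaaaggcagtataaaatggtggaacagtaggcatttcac

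The 250 bases before Prss50 held 18 CpGs, those before Myo5c 11 and those before Mgam 4. The next 2 sequences are coding and lie where methylation differed between the genotypes. They are the first 300 coding bases of Prss50, in exon 1, and the first 300 bases of the last exon of Atp2b2-003, which are coding, written along the coding strand.
Prss50 exon 1, chr9:110760495-110760794, plus strand: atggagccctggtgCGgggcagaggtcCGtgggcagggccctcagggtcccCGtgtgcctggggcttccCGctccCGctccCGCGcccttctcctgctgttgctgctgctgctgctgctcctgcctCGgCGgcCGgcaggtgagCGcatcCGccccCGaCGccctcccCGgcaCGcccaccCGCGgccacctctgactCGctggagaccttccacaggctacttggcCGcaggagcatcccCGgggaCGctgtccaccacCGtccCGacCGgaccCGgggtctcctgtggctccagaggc
Atp2b2 last exon, chr6:113698543-113698842, minus strand: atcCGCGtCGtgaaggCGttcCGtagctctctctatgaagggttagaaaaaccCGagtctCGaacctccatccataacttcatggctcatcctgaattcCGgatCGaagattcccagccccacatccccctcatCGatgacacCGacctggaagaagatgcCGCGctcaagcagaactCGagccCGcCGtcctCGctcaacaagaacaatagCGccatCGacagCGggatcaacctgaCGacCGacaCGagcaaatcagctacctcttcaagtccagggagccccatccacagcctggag

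The RNA-seq libraries held 12928313 to 14621004 counts. The WGBS libraries held 319866478 to 710952704 reads over CpGs, where a read was counted once for each CpG it covers. Rlf itself had 918, 1094 and 982 counts in wild-type livers and 983, 1106 and 963 in homozygous livers, a log2 fold change of 0.08 (SE 0.07, adjusted p = 0.646 by edgeR's quasi-likelihood test). Rlf mRNA was therefore no check of the genotype labels, since an ENU allele need not lower the transcript. Over the genome, 70.7 and 72.0% of reads at CpGs were methylated in wild-type E10.5 embryos against 73.3 and 74.0% in homozygous ones, 56.4 and 58.5% against 60.3 and 59.2% in E14.5 liver, and 61.4 and 61.7% against 65.5 and 61.4% in E18.5 liver. Homozygous E18.5 liver 2 was thus at the wild-type level over the genome while homozygous E18.5 liver 1 was above it. The median 1 kb tile differed by 1.69 percentage points, homozygous minus wild-type, over the stages together.

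Of the 4 genes, Prss50 had the largest difference at its start. Over the 75 CpGs within 1 kb to either side, each homozygous library had more methylated reads than each wild-type library of its stage. The level was 19.1 and 21.9% in wild-type E10.5 embryos and 33.6 and 33.3% in homozygous ones. In E14.5 liver it was 19.1 and 21.0% against 34.9 and 33.2%, and in E18.5 liver 25.7 and 22.6% against 39.8 and 34.8%. The difference was 12.9, 13.95 and 13.1 points at E10.5, E14.5 and E18.5, and its mean was 13.3 points. Behind the level of each library stood 2095 to 4096 reads, each counted once per CpG it covers. Homozygous libraries above wild-type ones at every stage were found at 8.35% of 18295 protein-coding autosomal genes.

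Methylation had no part in the stated rule that chose the genes, although the sources do not say whether closeness to a differentially methylated region entered the authors' choice. The Prss50 start gave p = 0.00926 in an exact two-sided test that permuted genotype labels inside each stage, the smallest p that the 216 arrangements allow, and 0.0556 after adjustment over the 12 tests of 4 genes and 3 kinds of region. Within a single stage, an exact permutation of 2 libraries against 2 could not go below p = 0.333. Among the 18295 genes, 57 (0.312%) had a larger difference at the start than Prss50, and the median gene differed by 0.36 points. At the start, homozygous E18.5 liver 2, the library without a genome-wide rise, lay above both wild-type livers of its stage, and without it the mean difference was 14.2 points.

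**Figure D1:**
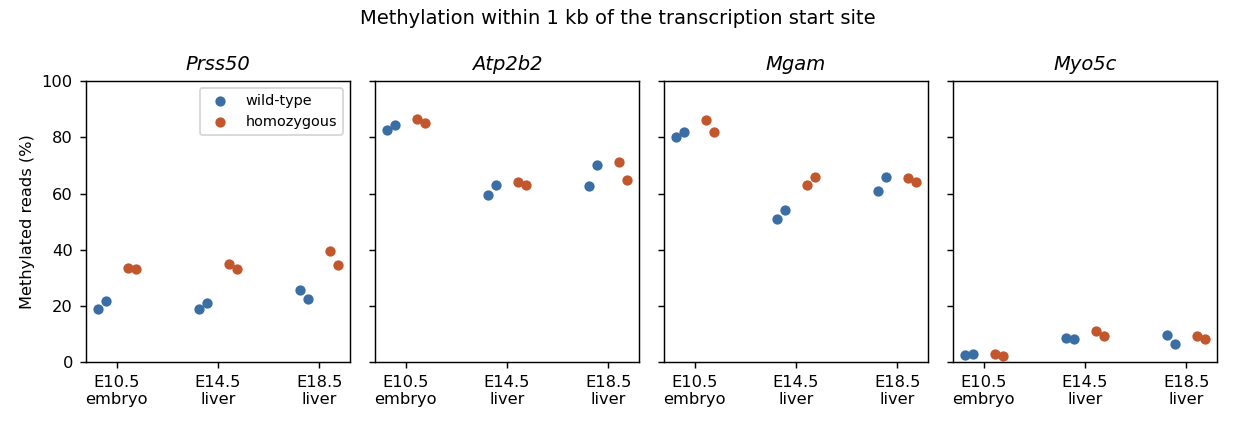
Percent of methylated reads (vertical axis) over the CpGs within 1 kb of the transcription start site of each gene, by stage, with 1 point per WGBS library and wild-type and homozygous libraries in separate colours. The homozygous points lie above the wild-type points at every stage at Prss50, from 33.2 to 39.8% against 19.1 to 25.7%, while the points of the other genes overlap in at least 1 stage.

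Of the 75 CpGs in the window, 73 had a higher mean in the homozygous libraries. Neighbouring CpGs share reads, so these are not separate measurements. Over the 51 CpGs from 200 bases upstream to 500 downstream, the mean level was 13.0% in wild-type and 27.4% in homozygous libraries, and 50 CpGs were higher. Farther upstream, from 1000 to 200 bases before the start, the mean over 16 CpGs was 51.5% in wild-type and 57.6% in homozygous libraries, with differences of -4.04 to 25.7 points, the highest of them 206 bases before the start. From 500 to 1000 bases downstream, over 8 CpGs, it was 44.3 and 52.7%, with differences of 4.32 to 16.7 points.

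In the upstream sequence printed above, 17 of the CpGs were covered in all libraries and averaged 12.7% in wild-type and 27.1% in homozygous samples. In the first 300 coding bases, 27 covered CpGs averaged 7.45% against 21.6%, and every one was higher in the homozygous mean (by 5.06 to 24.7 points). One of the 27 is no CpG in the printed mm9 bases but is in the files, which used a reference with FVB/NJ substitutions.

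**Figure D2:**
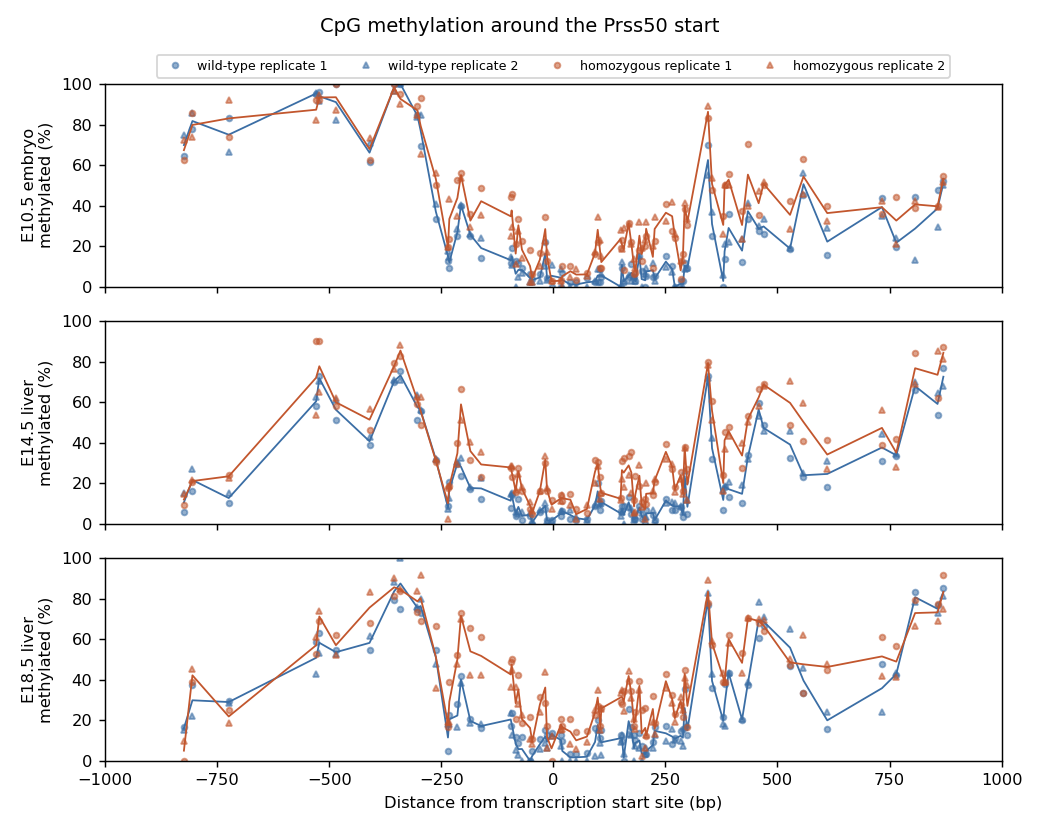
Percent methylation of each CpG (vertical axis) against its distance from the Prss50 transcription start site in bases (horizontal axis), with a panel per stage. Markers show single WGBS libraries, and each line is the mean of the 2 libraries of a genotype. In all 3 panels the homozygous lines are mostly above the wild-type lines from 200 bases upstream to 500 downstream, where the means were 27.4 and 13.0%. The E10.5 and E18.5 lines cross at single CpGs, and toward the edges of the window the lines lie closer together.

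The rest of Prss50 did not follow its start. Over 49 CpGs of the gene body, 86.2 and 88.7% of reads were methylated in wild-type E10.5 embryos against 85.1 and 87.7% in homozygous ones, 63.0 and 69.1% against 66.4 and 64.5% in E14.5 liver, and 73.0 and 75.2% against 80.2 and 71.4% in E18.5 liver. The mean difference was 0.0064 points (exact permutation p = 1), and 92.7% of genes had a larger one in the gene body. Within 50 kb to either side the mean difference was 3.14 points over 1130 CpGs (exact permutation p = 0.0185, adjusted 0.0741), where the median gene differed by 1.89 points.

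In tiles of 1 kb, the tile holding the Prss50 start, chr9:110760001-110761000 with 62 CpGs, gave the lowest p of the 4 loci. Its level was 13.9 and 17.2% against 29.9 and 29.7% in E10.5 embryos, 15.5 and 16.9% against 31.0 and 29.8% in E14.5 liver and 21.9 and 18.7% against 37.6 and 32.6% in E18.5 liver. The mean difference of 14.4 points had an adjusted p of 1.54e-09 over all 581510 tiles tested (edgeR's quasi-likelihood test on methylated and unmethylated counts). It was nearly the same at each stage, at 14.3, 14.2 and 14.8 points, and each passed the edgeR test alone (adjusted p = 0.0015, 2.18e-05 and 0.0106). The interaction of genotype with stage did not pass (adjusted p = 1 by edgeR). Since a tile was called only above 15 points, this tile was not a called one. With tiles shifted by 500 bases, the tile from chr9:110760501 was called in E10.5 embryos (16.2 points) and in E14.5 liver (15.3 points).

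Upstream of Prss50 lie Prss46, Prss45, Prss43 and Prss44, protease genes of the same strand, 1445 to 33444 bases away. Other tiles of the locus that passed the test below 15 points were chosen with their values in view. A tile with an exon of Prss44, chr9:110716001-110717000, rose by 12.3 points (adjusted p = 2.16e-05 by edgeR), from 64.1 and 68.1% to 77.9 and 77.0% in E10.5 embryos, from 43.8 and 45.2% to 55.6 and 60.6% in E14.5 liver and from 58.8 and 51.8% to 70.3 and 63.9% in E18.5 liver. With tiles shifted by 500 bases, the tile from chr9:110716501 was called over the stages together (15.5 points, adjusted p = 1.98e-06 by edgeR), in E14.5 liver (15.5 points) and in E18.5 liver (18.8 points). A tile with an exon of Prss45, chr9:110737001-110738000 with 33 CpGs, rose by 9.28 points (adjusted p = 1.11e-05 by edgeR). By itself in E14.5 liver, that Prss45 tile did not pass (adjusted p = 0.110 by edgeR). The shifted tile from chr9:110737501, with 10 CpGs, was called in E14.5 liver at 20.1 points. Its wild-type levels there were 44.4 and 45.3%, against 70.6 and 68.8% in the first tile. A tile with an exon of Prss43, chr9:110729001-110730000, rose by 6.12 points (adjusted p = 0.0182 by edgeR). A tile in Als2cl on the other side, chr9:110792001-110793000, rose by 10.6 points (adjusted p = 0.00386).

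Atp2b2 differed from Prss50 in where its methylation changed. Around the start of Atp2b2-003, 18 CpGs were largely methylated in both genotypes, at 82.5 and 84.6% against 86.7 and 85.2% in E10.5 embryos, 59.5 and 63.2% against 64.2 and 63.1% in E14.5 liver and 62.7 and 70.2% against 71.1 and 64.7% in E18.5 liver. The genotypes overlapped in both livers, and the mean difference of 2.05 points did not pass the exact permutation test (p = 0.231, adjusted 0.347). It was 0.79 without E18.5 wild-type liver 1, 0.99 without E18.5 homozygous liver 1, 3.31 without E18.5 wild-type liver 2, 3.11 without E18.5 homozygous liver 2 and 3.40 with CpGs of at least 1 read. Of all genes 19.9% had a larger difference at the start. The gene body, with 2578 CpGs, was slightly and evenly higher in homozygous samples. It stood at 74.3 and 74.6% against 77.5 and 77.5% in E10.5 embryos, 54.5 and 56.9% against 59.4 and 57.8% in E14.5 liver and 61.2 and 61.5% against 66.0 and 62.7% in E18.5 liver. Homozygous libraries were above wild-type ones at every stage, as in 16.2% of gene bodies. The mean difference of 2.99 points had the smallest p the arrangements allow (exact permutation p = 0.00926, adjusted 0.0556), and 11.7% of 17752 genes had a larger one. The flanks of Atp2b2, with 840 CpGs, differed by 2.31 points (exact permutation p = 0.037, adjusted 0.111), or 1.14 with CpGs weighted equally, where the median gene had 1.89 and 28.4% of genes had a larger difference.

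Atp2b2 has 8 annotated transcripts, and their starts were unlike each other. The start of Atp2b2-001, at 113992020 near the outer end of the gene, lies among 89 CpGs and was little methylated. It had 3.51 and 4.27% in wild-type against 7.10 and 6.81% in homozygous E10.5 embryos, 9.81 and 9.84% against 15.3 and 11.7% in E14.5 liver, and 7.43 and 7.32% against 9.95 and 8.43% in E18.5 liver. Both homozygous libraries were above both wild-type libraries at each stage, by 2.85 points on average, where the median gene start differed by 0.36 points. The window around Atp2b2-007, the outermost start, differed by 4.70 points over 87 CpGs (exact permutation p = 0.00926). Of the internal starts, the CpG-rich one at 113841370 differed by 1.36 points over 52 CpGs, that of Atp2b2-004 at 113841533, whose window overlaps it, by 3.24 points over 58 CpGs, and that of Atp2b2-006 at 113860576 by 2.64 points over 13 CpGs. The gene-level counts do not separate these transcripts, so which start the liver RNA came from was not measured.

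The called tile of the 4 loci lay at the other end of Atp2b2, at chr6:113698001-113699000, over the last exon of Atp2b2-003 (chr6:113698288-113698842), which holds the end of the coding sequence and its 3′ untranslated region. Its 39 CpGs stood at 42.7 and 51% in wild-type against 67.4 and 60.2% in homozygous E10.5 embryos. In E14.5 liver they stood at 28.7 and 29.9% against 47.7 and 44.1%, and in E18.5 liver at 40.02 and 45.9% against 56.9 and 53.2%. Neither genotype overlapped the other at any stage. The mean difference was 15.2 points (adjusted p = 8.94e-07 over 581510 tiles by edgeR), made up of 17.0, 16.6 and 12.1 points at E10.5, E14.5 and E18.5. By itself, the tile was called in E10.5 embryos (adjusted p = 0.0112) and E14.5 liver (adjusted p = 2.33e-04) but did not pass in E18.5 liver (adjusted p = 0.394). The stages were not shown to differ by that, since the interaction of genotype with stage did not pass (adjusted p = 1 by edgeR). Leaving out 1 library at a time gave 13.8 to 16.6 points with adjusted p of 1.42e-05 or lower, and in 5 of those 12 fits the difference came out below 15 points. With tiles shifted by 500 bases, the tile from chr6:113698501 was called in E10.5 embryos and in E14.5 liver (15.4 points each) but not over the stages together, where the shifted tile upstream of Prss50 at chr9:110716501 was the called one.

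All 39 CpGs of the tile were higher in the homozygous mean, by 4.77 to 27.4 points with a median of 16.3. The tile was chosen by its difference, so this describes the tile and is no further test. The 23 covered CpGs in the coding bases printed above averaged 40.4% in wild-type and 54.7% in homozygous libraries. The 14 CpGs of the tile outside the coding part averaged 42.1% and 60.1%. The adjacent tile toward the start of the gene, chr6:113699001-113700000 in an intron, rose by 9.04 points (adjusted p = 0.00514) and was chosen with its value in view.

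**Figure D3:**
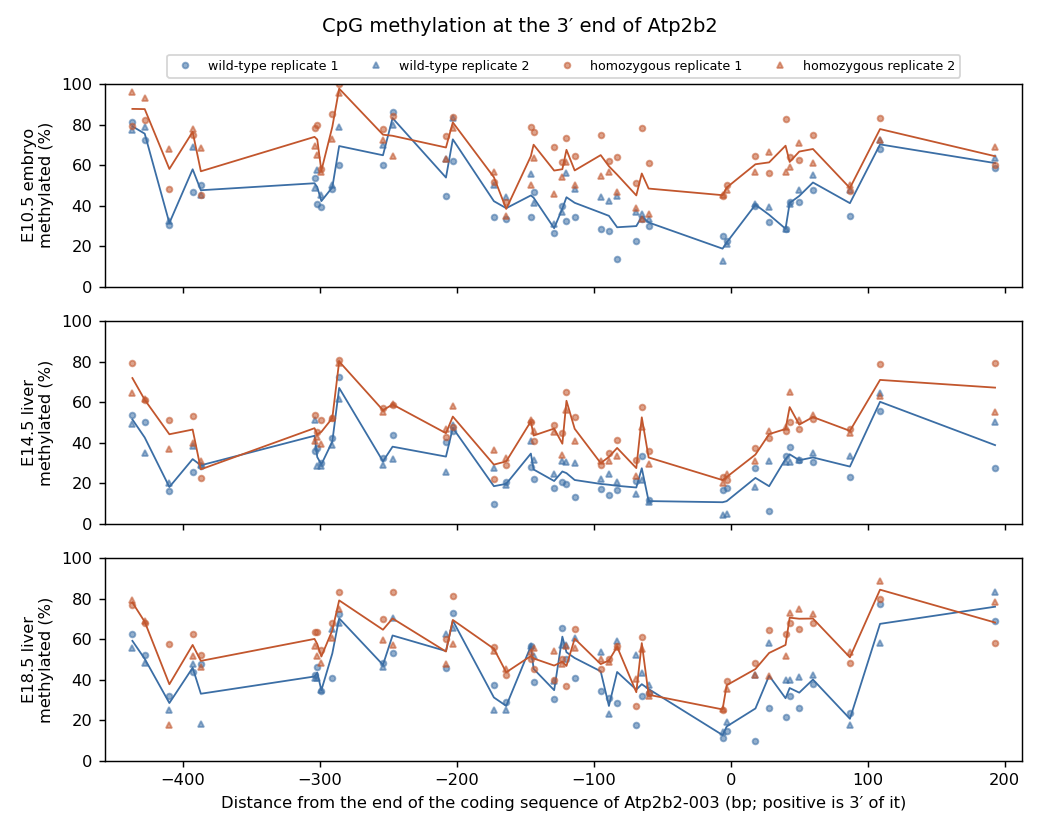
Percent methylation of each CpG in the called tile of Atp2b2 (vertical axis) against its distance in bases from the end of the coding sequence of Atp2b2-003 (horizontal axis), with a panel per stage. Markers show single WGBS libraries, and each line is the mean of the 2 libraries of a genotype. The homozygous lines are mostly above the wild-type lines on both sides of the stop codon, with means over the 39 CpGs of 55.5 and 39.7%.

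The outer start of Atp2b2 also held a tile that passed the test below the minimum difference, chosen with its value in view. At chr6:113992001-113993000 the level was 10.6 and 12.8% against 21.2 and 23.9% in E10.5 embryos, 27.5 and 28.9% against 39.0 and 31.3% in E14.5 liver and 19.96 and 20.3% against 29.96 and 21.6% in E18.5 liver. The mean difference was 7.82 points (adjusted p = 0.00278). Another 8 intron tiles, besides the one next to the last exon, rose by 5.80 to 9.37 points with adjusted p of 0.00884 to 0.0459.

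At the start of Mgam no test passed, neither over the stages nor in E14.5 liver, the tissue of the RNA-seq, where the genotypes stood apart. Over 13 CpGs the level was 50.8 and 54.2% in wild-type and 63.0 and 65.8% in homozygous E14.5 liver, a difference of 11.9 points with no overlap. For 1 stage alone, the share of all genes without overlap was not counted. At the other stages the genotypes overlapped, with 80.2 and 82.1% against 86.0 and 81.7% in E10.5 embryos and 60.8 and 65.9% against 65.6 and 63.9% in E18.5 liver. The mean difference was 5.33 points (exact permutation p = 0.0648, adjusted 0.13), and 3.86% of 18295 genes had a larger one at the start. With a window of 500 bases to either side it was 3.35 points (exact permutation p = 0.315). In the tile at the start, chr6:40578001-40579000 with 11 CpGs, the mean difference was 6.31 points (adjusted p = 0.0655 by edgeR), with 2.25, 14.47 and 2.23 points at E10.5, E14.5 and E18.5. By itself, the tile did not pass in E14.5 liver (12.7 points, adjusted p = 0.0792 by edgeR). The interaction did not pass either (adjusted p = 1 by edgeR), so the stages were not shown to differ. The 4 CpGs in the printed bases before the Mgam start averaged 74.4% in wild-type and 75.8% in homozygous libraries. A second annotated start of Mgam, at 40592829, had a difference of -1.08 points. The Mgam gene body (407 CpGs) differed by 1.32 points (exact permutation p = 0.185) and the flanks (234 CpGs) by 0.91 points (exact permutation p = 0.343), where the median gene had 1.53 and 1.89 points. With 1 library left out the gene body ran from 0.67 (without E18.5 homozygous liver 1) to 1.96 (without E18.5 homozygous liver 2), with 0.86 without E14.5 wild-type liver 1 and 1.77 without E14.5 wild-type liver 2. The flanks were 0.24, 1.59, 0.37 and 1.45 points without those same libraries.

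Myo5c had a start that was close to free of methylation in every library. Its 49 CpGs stood at 2.69 and 3.12% in wild-type against 2.85 and 2.43% in homozygous E10.5 embryos, 8.68 and 8.42% against 11.1 and 9.56% in E14.5 liver, and 9.89 and 6.42% against 9.24 and 8.49% in E18.5 liver. The genotypes overlapped at E10.5 and E18.5, and the mean difference was 0.73 points (exact permutation p = 0.324, adjusted 0.374). It was 0.15 without E18.5 wild-type liver 2, 0.48 without E14.5 homozygous liver 1, 1.31 without E18.5 wild-type liver 1 and 0.39 with CpGs weighted equally, and the median gene had 0.36. With a window of 2 kb to either side, the difference at the Myo5c start was 1.53 points (exact permutation p = 0.0648). The 7 covered CpGs of the printed bases before the start averaged 4.62% and 5.18%. Its gene body differed by 1.04 points over 667 CpGs (exact permutation p = 0.296) and its flanks by 1.86 points over 746 CpGs (exact permutation p = 0.0648), where the median gene had 1.53 and 1.89 points. Without E18.5 homozygous liver 1 these were 0.29 and 0.88 points, without E18.5 homozygous liver 2 they were 1.78 and 2.84, and the gene body was at 0.65 without E14.5 wild-type liver 1. The tile of this locus with the largest difference, chr9:75151001-75152000 over an exon near the 3′ end, was lower in homozygous samples, at 56.7 and 53.8% against 42.3 and 46.5% in E10.5 embryos, 32.2 and 39.9% against 29.1 and 27.4% in E14.5 liver and 55.6 and 49.5% against 44.0 and 55.1% in E18.5 liver. Its difference of -7.23 points did not pass the test (adjusted p = 0.0556 by edgeR).

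Across the 4 loci with 50 kb to either side, 361 tiles could be tested over the stages together, and 1 of them was called as higher in homozygous samples (0.277%, against 0.148% of tiles over the genome). In E10.5 embryos 1 of 373 tiles was called (0.268%, against 0.362% over the genome) and in E14.5 liver 1 of 491 (0.204%, against 0.12%). In E18.5 liver 0 of 407 were called by edgeR, against 0.129% over the genome. An unadjusted p under 0.05 was found for 35 of the 407, against 51670 of 689415 tiles over the genome. Without a minimum difference, 16 of the 361 tiles passed over the stages together and all were higher in homozygous samples (4.43%, against 3.65% of tiles over the genome). Taken stage by stage, 5 tiles passed in E10.5 embryos (1.34%, against 0.699% over the genome), 3 in E14.5 liver (0.611%, against 0.401%) and 1 in E18.5 liver (0.246%, against 0.191%). No tile of the loci was called as lower in homozygous samples by edgeR, a call made for 0.00312% of tiles in E10.5 embryos, 0.00341% in E14.5 liver, 0.0029% in E18.5 liver and 0.00103% over the stages together. The 16 comprised 5 of 70 tiles at Prss50, 11 of 188 at Atp2b2, 0 of 17 at Mgam and 0 of 86 at Myo5c. At Mgam 2 of 17 tiles and at Myo5c 8 of 86 had an unadjusted p under 0.05. Over the genome 111991 of 581510 tiles had one. The interaction of genotype with stage passed the test in 0 of 361 tiles by edgeR, against 0.00155% over the genome. An unadjusted p under 0.05 was found for 8 of the 361, against 22304 of 581510 tiles over the genome.

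**Figure D4:**
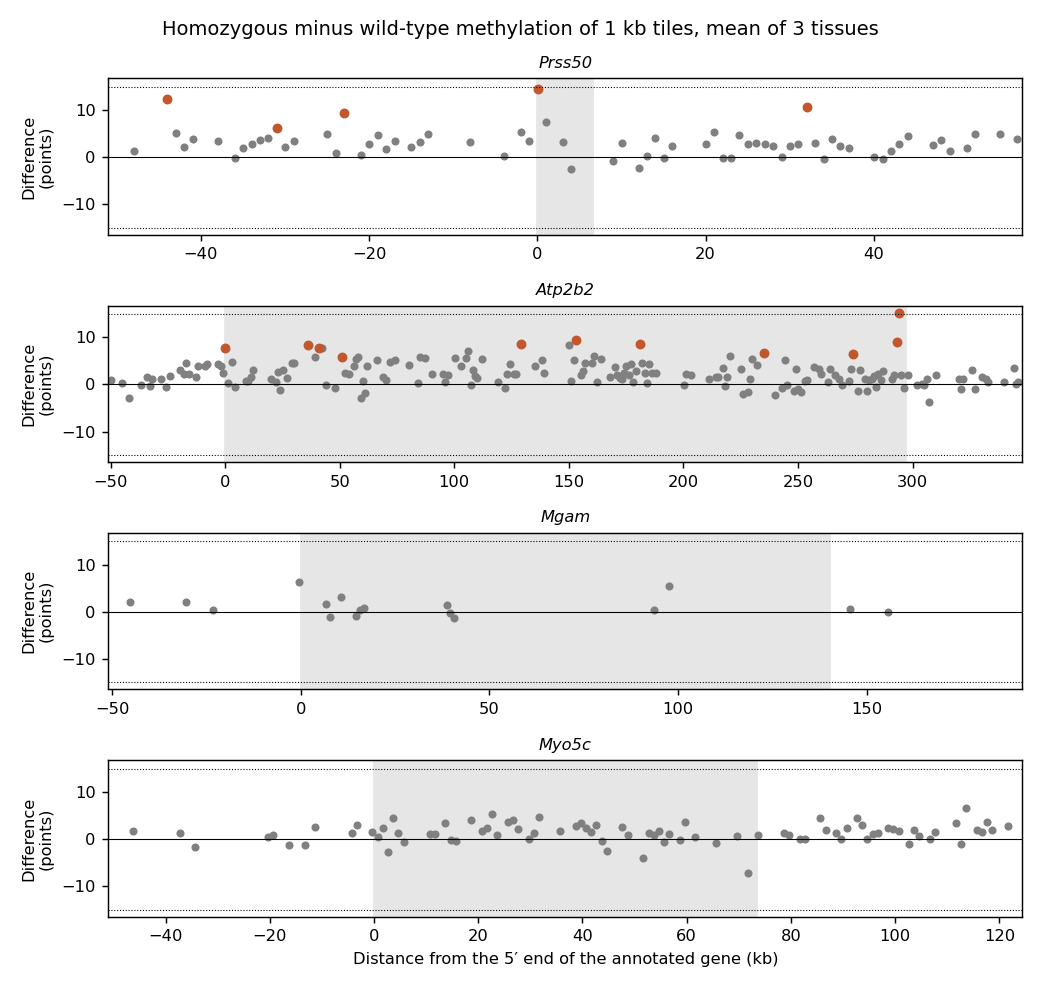
Homozygous minus wild-type methylation in percentage points, as the mean of the 3 stages (vertical axis), of each tested 1 kb tile against its distance in kb from the 5′ end of the annotated gene (horizontal axis), with a panel per gene. Most points lie slightly above 0, the start tile stands out at Prss50 with 14.4 points and the tile of the last exon at Atp2b2 with 15.2 points, and at Mgam and Myo5c the points stay between -7.23 and 6.61 points.

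The transcript counts of the 4 genes are given as a description without a test, because RNA-seq of these livers chose them. All of them were expressed at a low level. On the RPKM scale, which divides reads by exon length and library size, the wild-type means were 5.70 for Prss50, 0.590 for Mgam, 0.320 for Atp2b2 and 0.231 for Myo5c. For 2 of the genes the counts were lower and for 2 they were higher in homozygous livers, and the genotypes did not overlap in any of the 4. Of all 14183 genes tested, 20.3% had no overlap of the genotypes, 1395 of them lower and 1490 higher in homozygous livers. Over all 14183 genes tested, 98 (0.691%) passed as lower and 99 (0.698%) as higher in homozygous livers, a background from which nothing is read here for genes chosen on this contrast. In whole liver, fewer cells that express a gene and less RNA per cell cannot be told apart.

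Prss50, the protease-like gene, had 116, 134 and 102 counts in wild-type livers 1, 2 and 3 and 28, 24 and 19 in homozygous livers. That is 8.85, 8.85 and 7.15 CPM (counts scaled to library size) against 2.17, 1.73 and 1.33, with means of 8.29 ± 0.98 and 1.75 ± 0.42 (SD, n = 3 each). The lowest wild-type liver was far above the highest homozygous liver. The fitted log2 fold change was -2.25 (SE 0.20), and between -2.43 and -2.08 when any 1 liver was left out.

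Atp2b2, the calcium pump gene, had 53, 58 and 35 counts in wild-type and 12, 14 and 11 in homozygous livers. The levels were 4.04, 3.83 and 2.46 CPM against 0.931, 1.01 and 0.772 CPM, with means of 3.44 ± 0.863 and 0.905 ± 0.121 (SD, n = 3 each). The wild-type livers were spread more widely than the homozygous ones, with the female liver lowest. The log2 fold change was -1.92 (SE 0.28), and -2.11 to -1.79 with any 1 liver left out.

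Mgam, the starch-digesting enzyme gene, was higher in homozygous livers, with 187, 181 and 180 counts against 49, 59 and 55 in wild-type livers. In CPM this was 14.51, 13.1 and 12.6 against 3.74, 3.90 and 3.86, with means of 13.4 ± 0.985 and 3.83 ± 0.083 (SD, n = 3 each). The wild-type livers were nearly alike. The log2 fold change was 1.80 (SE 0.13), and 1.74 to 1.84 with any 1 liver left out.

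Myo5c, the myosin gene, had 62, 64 and 80 counts in homozygous livers against 24, 11 and 30 in wild-type livers. The levels were 4.81, 4.62 and 5.62 CPM against 1.83, 0.727 and 2.104 CPM, with means of 5.02 ± 0.53 and 1.55 ± 0.729 (SD, n = 3 each). Wild-type liver 2 was the lowest by far and moved the estimate. The log2 fold change was 1.70 (SE 0.28), 1.34 without that liver and up to 2.001 without another.

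**Figure D5:**
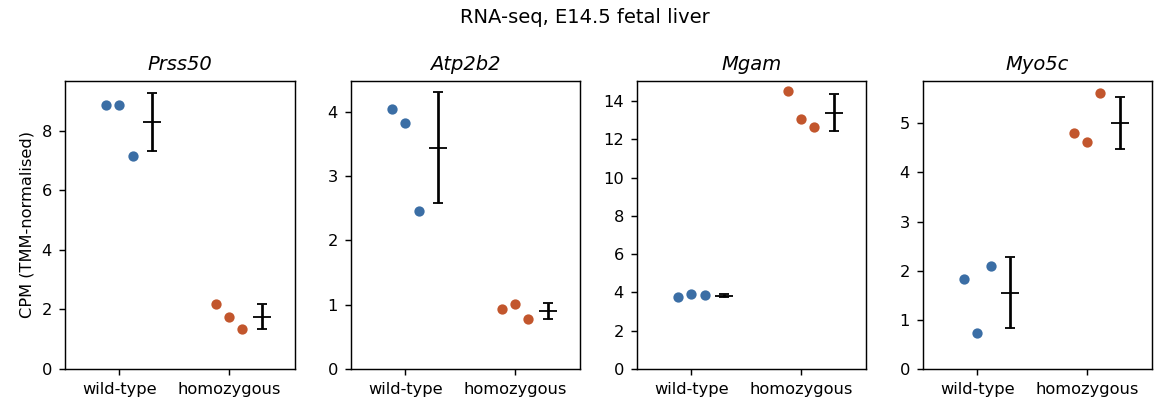
Transcript level in TMM-normalised CPM (vertical axis) of the 4 genes in 3 wild-type and 3 homozygous E14.5 livers, with a point per liver and a bar for the mean ± SD. Prss50 and Atp2b2 are lower in all 3 homozygous livers and Mgam and Myo5c higher, with no overlap in any panel, as for 20.3% of all genes tested.

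Set side by side for E14.5 liver, the genotype difference in methylation at the start and in RNA took different combinations in the 4 genes. Prss50 had 13.95 points more methylation at its start and a log2 fold change of -2.25 in RNA. Mgam had 11.9 points more at its start, where the tile did not pass in this tissue (adjusted p = 0.0792 by edgeR), and a log2 fold change of 1.80. At the start of Atp2b2-003 the difference was 2.34 points with a log2 fold change of -1.92, and at Myo5c it was 1.76 points with 1.70. In this tissue the genotypes overlapped at the starts of Atp2b2-003, Atp2b2-004 and Atp2b2-006. They did not at Atp2b2-001 (9.81 and 9.84% in wild-type against 15.3 and 11.7% in homozygous livers), Atp2b2-007 or the start at 113841370. The last-exon tile of Atp2b2 differed by 16.6 points. With 4 genes no relation between methylation and RNA could be tested.

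None of the genes next to the 4 passed the test in E14.5 liver. Within 50 kb lie 16 other annotated genes, of which 7 had enough counts to be tested and 7 had no count in any liver. The count of called neighbours was 0 (by edgeR's quasi-likelihood test, by DESeq2 and with replicate number as a block, against 1.39% of all genes). Their log2 fold changes ran from -0.23 to 0.19 with adjusted p of 0.310 to 0.850 by edgeR. An unadjusted p under 0.05 was found for 2, against 2071 of all 14183 genes tested. These were Sec13 and Tatdn2, both next to Atp2b2 and both lower. Near Prss50, Tmie, a hearing gene that lies 1083 bases away on the opposite strand, had a log2 fold change of 0.19 (SE 0.19, adjusted p = 0.694) and Als2cl one of 0.08 (SE 0.14, adjusted p = 0.850). The protease genes Prss43, Prss44, Prss45 and Prss46 had no count in any liver.

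Next to Atp2b2, Sec13, a gene of the COPII coat and the nuclear pore 4926 bases away, stood at 113 CPM in wild-type and 104 CPM in homozygous livers (log2 fold change -0.13, SE 0.06, adjusted p = 0.322). Tatdn2, 34600 bases away, had a log2 fold change of -0.14 (SE 0.06, adjusted p = 0.310). Ghrl, the gene of the hormone ghrelin, stayed at 2 counts or fewer in each liver, and the antisense genes Gm15082 and Gm15083, which overlap Atp2b2, had none. The libraries were not stranded, but neither antisense gene shares exon bases with Atp2b2. Near Mgam, the myeloid receptor gene Clec5a had a log2 fold change of -0.23 (SE 0.22, adjusted p = 0.686), and the bitter taste receptor gene Tas2r138 stayed at 2 counts or fewer in each liver. Myo5a, the paralog of Myo5c 8326 bases from it, stood at 14.9 CPM in wild-type and 15.6 CPM in homozygous livers (log2 fold change 0.06, SE 0.10, adjusted p = 0.842), Gnb5, a G protein beta subunit gene, had a log2 fold change of -0.17 (SE 0.23, adjusted p = 0.783), and Bcl2l10, of the BCL2 family, had no count.

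Beside the relatives of the 4 genes stands the share of all genes that passed the test in either direction, 1.39%. An unadjusted p under 0.05 was found for 2071 of all 14183 genes tested. Of 26 chymotrypsin-fold serine proteases related to Prss50, 11 had no count in any liver and 9 were tested. Prss8, which encodes prostasin, rose from 17.8 to 25.3 CPM (log2 fold change 0.51, SE 0.11, adjusted p = 0.0449 by edgeR). That call was lost in 5 of 6 fits that left out a liver, all but the one without homozygous liver 3. Of the most abundant, Hpn, which encodes hepsin, had a log2 fold change of 0.06 (adjusted p = 0.770) and Tmprss6, which encodes the hepcidin regulator matriptase-2, one of -0.33 (adjusted p = 0.0542). With replicate number as a block Tmprss6 passed as lower (adjusted p = 0.0230), as it did by DESeq2 (adjusted p = 0.0286). Tmprss2 had a log2 fold change of 0.11 (adjusted p = 0.806). The median log2 fold change of the 9 was 0.11, against -0.0017 over all genes tested.

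Of 27 genes of calcium pumps, exchangers, channels and calmodulins, 19 were tested and none passed (0 by edgeR, 2 with an unadjusted p under 0.05, 1 by DESeq2). Calm2 and Calm3, which encode calmodulin, were the most abundant per length, with log2 fold changes of -0.05 and -0.08. The other pumps of the Atp2b family that were tested, Atp2b1 and Atp2b4, had log2 fold changes of 0.13 (adjusted p = 0.403) and -0.04 (adjusted p = 0.911). Atp2a3, a calcium pump of the endoplasmic reticulum, and Itpr3, an inositol trisphosphate receptor, passed as higher with replicate number as a block (log2 fold changes of 0.32 and 0.46, adjusted p = 0.0212 and 0.0423), and Atp2a3 passed by DESeq2 (adjusted p = 0.0364). The list's median was 0.10.

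Of 21 genes of glycosidases and glycogen metabolism, 17 were tested and none passed (0 by edgeR and by DESeq2, 5 with an unadjusted p under 0.05). Sis, the sucrase-isomaltase gene closest to Mgam, had no count in any liver. The most abundant, Ganab, Pygl and Gys2, had log2 fold changes of 0.05, -0.0043 and 0.10, and the list's median was 0.10. Gaa, the lysosomal alpha-glucosidase gene, passed as higher with replicate number as a block (log2 fold change 0.27, adjusted p = 0.0364). Of 28 class V myosins and cargo adaptors, 24 were tested and none passed (0 by edgeR and by DESeq2, 4 with an unadjusted p under 0.05). Rab10, Dynll2 and Dynll1 were the most abundant, with log2 fold changes of -0.05, -0.11 and -0.13, Myo5b had one of -0.18 (adjusted p = 0.517), and the median was -0.05. Rab27b, a granule GTPase, passed as higher with the block (log2 fold change 0.35, adjusted p = 0.0215).

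Markers of the cell types in and near liver bear on these low counts. The hepatoblast and erythroid markers that define E14.5 liver were abundant in every library. Summed over 10 hepatoblast markers the level was 56411 to 67040 CPM in wild-type and 69206 to 80245 CPM in homozygous livers, where 1 of 10 passed as higher, against 0.698% of all genes (Trf, the transferrin gene, log2 fold change 0.46, adjusted p = 0.0289, lost without wild-type liver 1 or 3 or homozygous liver 1 or 2), and over 9 matched erythroid markers it was 10589 to 14409 and 10702 to 12610 CPM with none past the test. Of 10 neutrophil markers 7 passed as lower (Elane, Ltf, Ngp, Camp, S100a8, S100a9 and Lcn2, log2 fold changes of -0.67 to -0.93), against 0.691% of all genes, with a sum of 941 to 1375 against 773 to 894 CPM. That count was 4 by DESeq2 and without homozygous liver 2, and 1 (Camp) without homozygous liver 1 or 3. The list did not fall as a whole. Mpo, also on it, did not pass and had log2 fold changes of 0.0415 to 0.274 with 1 liver left out. Of 4 tested eosinophil markers 1, Prg2, fell, against 0.691% of all genes (log2 fold change -1.27, sum 64.8 to 78.6 against 31.3 to 42.0 CPM). With the replicate block Epx was also lower (adjusted p = 0.0382; 0.0358 by DESeq2) and Siglec5 higher (adjusted p = 0.0260; 0.0413 with sex as a covariate), and Epx was also lower without wild-type liver 1. Of 8 megakaryocyte markers 2 passed as higher, against 0.698% of all genes (Pf4 and Itgb3, sum 639 to 685 against 797 to 888 CPM), and Itga2b joined them with the block (adjusted p = 0.0322) and by DESeq2 (adjusted p = 0.0346). The count was 0 without homozygous liver 3, 1 without wild-type liver 3 and 4 without wild-type liver 2. None of the tested macrophage (10), endothelial (8) or mesenchymal (8) markers passed, with sums of 496 to 514 against 449 to 485, 319 to 347 against 350 to 409 and 814 to 1061 against 886 to 1315 CPM. An unadjusted p under 0.05 was found for 2, 5 and 2 of them by edgeR, against 2071 of all 14183 genes tested, and DESeq2 called none. Marco was lower with the replicate block (adjusted p = 0.0235), without wild-type liver 2 and without the low-count filter. Pdgfrb was higher without homozygous liver 2 (adjusted p = 0.0484) and without the filter, and Stab2 without the filter (adjusted p = 0.0372). Without the filter Alb, a hepatoblast marker, also passed as higher.

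Tissues in which the 4 genes are better known left few counts. Germ cell markers, for Prss50, summed to 0.595 to 1.14 CPM in wild-type and 0.0702 to 0.543 CPM in homozygous livers, none of the 6 could be tested and Sycp3 had no count. Neuron markers, for Atp2b2, summed to 1.52 to 5.12 against 1.32 to 2.32 CPM with none of 6 tested. Gut and pancreas markers, for Mgam and Myo5c, summed to 18.6 to 24.4 against 15.1 to 18.2 CPM. Most of that was Fabp2, and the defining genes Sis and Pnlip had no count. Cpa1, a pancreatic carboxypeptidase gene, had a log2 fold change of -3.16 (adjusted p = 0.0969; -3.03 and 0.00759 with the replicate block). Whether the share of these cell types plays a part in the counts of the 4 genes was not tested.

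The genes whose level ran most like each of the 4 over the 6 livers are named with Pearson's r of log2 CPM among 13633 genes, as a description, since any gene that differs between the genotypes scores highly. They were Zfp783 (r = 0.997) and Rogdi (r = 0.996) for Prss50, Gpx3 (r = 0.997) and Rab1b (r = 0.996) for Atp2b2, Nr3c1 (r = 0.996) and Nefh (r = 0.990) for Mgam, and Tmem27 (r = 0.995) and Pabpc4l (r = 0.988) for Myo5c. Gpx3 encodes the plasma glutathione peroxidase, Rab1b a GTPase of early secretory traffic, Nefh a neurofilament and Tmem27 collectrin. Zfp783, a zinc finger gene, went from 8.998 CPM in wild-type to 2.82 CPM in homozygous livers, close to the levels of Prss50. Nr3c1, the glucocorticoid receptor gene, differed far less than Mgam, with 81.8 against 91.8 CPM.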

How the data were processed

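Libraries were grouped by genotype and stage as their labels give them. H3K4me1 ChIP-seq of the series was not analysed here. For WGBS, the authors trimmed paired-end reads and aligned them with Bismark and Bowtie2 to mm9 carrying FVB/NJ substitutions, with the lambda genome and the GFP transgene added. PCR duplicates were removed and both strands of a CpG joined. They deposited, for each CpG, the counts of reads read as methylated or not, next to a rounded percent that was not used. For RNA-seq, the authors aligned unstranded single-end reads of 50 bases with TopHat and deposited raw counts per gene from htseq-count with Ensembl annotation, without normalization.

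Region levels are percent methylated reads, from CpGs that had 6 or more reads in each of the 12 libraries. TSS windows reach 1 kb to either side of the start of the transcript with the longest coding sequence, gene bodies are the rest of the gene and flanks 50 kb to either side. Genotypes were compared by exact two-sided permutation within stage, with Benjamini-Hochberg adjustment over 12 tests. Tiles of 1 kb holding 8 or more such CpGs were tested genome-wide with edgeR 4.0.16 (quasi-likelihood, 1 intercept per library, dispersion from every 40th tile) and a call needed more than 15 points of difference besides an adjusted p below 0.05. RNA-seq counts were tested with edgeR (TMM, default low-count filter), with DESeq2 1.42.0 as the other tool, in R 4.3.3. Sequences were read with pysam 0.24.0. The scripts for RNA and tile tests were tested on simulated data.

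The 4 genes and all lists were chosen with earlier results of these data known. Besides the 4 genes and Rlf, the text names each gene within 50 kb, in each list the genes past the test and up to 3 more with the highest level per length, and 2 genes most alike in level to each of the 4. One gene that this rule names is not reported here. Tiles named are the called ones and the one with the largest difference per locus. List genes past the test only in an alternative, other paralogs, zero-count markers and other tiles were named after their values were seen. Of 37991 gene rows, 37205 had a symbol in the annotation.

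In RNA-seq, the deviations of same-numbered livers from the means of their groups were correlated (r = 0.123, 0.239 and 0.421 over 14183 genes), so the blocked value stands beside a result whose call it changed. Replicate 3 is the female liver of each genotype. WGBS gave no such sign. The E14.5 livers of WGBS were littermates and no source gives the litters of the other samples, so p-values measure the spread between these samples. None of the 6 pairs of RNA-seq libraries of 1 genotype agreed within counting noise.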

Additional observations from a re-analysis of the deposited data

How the results depend on the processing

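The number of genes called in RNA-seq, 197, became 532 without the low-count filter and 460 with replicate number as a block, and 66 to 224 with 1 liver left out (66 without homozygous liver 1, 94 without wild-type liver 1, 105 without either liver 3, 115 without homozygous liver 2). DESeq2 called 257. The fold changes of the 4 genes kept their direction under every alternative run. That is no check on them, because RNA-seq of these livers chose the genes. The study also used real-time RT-PCR in livers of another null Rlf line, MommeD34, and lists primers for all 4 genes. Those measurements were not used here.

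Called tiles at the 4 loci rose with shifted tiles from 1 to 2 in E10.5 embryos, from 1 to 4 in E14.5 liver and from 0 to 1 in E18.5 liver. Over the stages together 1 was called in either case, but the shifted one lay at Prss44 and not at Atp2b2. Without a minimum difference they were 5, 3 and 1, and 16 over the stages together. With 1 library left out they were 0 to 3 in E10.5 embryos (0 without wild-type 1, 3 without wild-type 2), 0 to 1 in E14.5 liver (0 without homozygous 1), 0 to 1 in E18.5 liver (1 without either homozygous liver) and 0 to 2 over the stages together. The last was 0 without E10.5 wild-type 1, E10.5 homozygous 1, E14.5 homozygous 1, E18.5 wild-type 1 or E18.5 homozygous 1, where the Atp2b2 tile dropped under 15 points, and 2 without E18.5 homozygous 2.

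With replicate number as a block, called tiles in E10.5 embryos were 2 in place of 1, and those of the other fits kept their number. No region test passed with the block, but that test could hardly pass. Its 64 arrangements allow no exact permutation p below 0.03125, the value of the Prss50 start and the Atp2b2 gene body (adjusted 0.1875). After adjustment over 12 tests, regions at that p could pass only if most of the 12 reached it. Nothing is therefore read from the blocked region test. In WGBS the deviations of same-numbered libraries correlated at 0.0456, 0.0504 and -0.0136 over 581510 tiles, so the numbers gave no sign of pairing.

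The Prss50 gene body, at 0.0064 points, changed sign with at least 10 reads per CpG (-0.981) and ran from -1.46 to 1.47 with 1 library left out. Differences that passed an adjusted p of 0.05 under an alternative only were those with CpGs weighted equally at the Prss50 start (12.02 points), the Prss50 flanks (2.92) and the Atp2b2 gene body (2.71), and those with the start set at the end of the annotated gene, at Prss50 (13.3) and Atp2b2 (4.70), each at adjusted p = 0.037. Without E18.5 homozygous liver 2, 5 differences passed (adjusted p = 0.0222). With 1 library left out these ran from 12.5 to 14.2 points at the Prss50 start, 2.30 to 3.98 in its flanks, 2.44 to 3.53 in the Atp2b2 gene body, 1.62 to 3.001 in its flanks and 0.88 to 2.84 in the Myo5c flanks. The Prss50 start and the Atp2b2 gene body had the same exact permutation p, 0.00926, in the main setting. It is the smallest possible, and their adjusted p fell only because more regions reached it. Why the differences moved with a library left out was not tested.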
